A study of Homo sapiens with 12 samples.

Results

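Receptor tyrosine kinases were described in HOS, a human osteosarcoma cell line, by the mRNA counts of 10 receptors: EGFR, ERBB2, MET, AXL, PDGFRA, PDGFRB, FGFR1, IGF1R, INSR and EPHA2. They were chosen by name, as receptors of which several are known cargo of endocytosis by CBL and CIN85, with earlier results of these data known. Each was found in the counts table by its Ensembl identifier through GENCODE release 29. All 10 had a row among the 25141 genes counted, and all 10 were among the 12542 genes that passed the filter on low counts. The 12 libraries fell into 4 groups of 3. The cells labelled upCIN85 were a geneticin-resistant pool transfected with the pRc/CMV2-Rukl plasmid for full-length CIN85, and Mock cells were the corresponding pool with the empty vector. The cells labelled siCIN85 were transfected with 3 mixed siRNAs that target CIN85, and siNeg cells with a non-targeting siRNA. Each vector group was therefore 1 pool of transfected cells, and the labels do not say whether its 3 libraries came from separate cultures. P-values thus measure the spread between libraries, which may be technical. In bulk libraries of this kind, a lower mRNA level per cell cannot be told apart from fewer cells that express the gene.

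Receptor tyrosine kinases are membrane proteins that bind a ligand outside the cell, pair up, and phosphorylate tyrosines on their own tails, from which the RAS-MAPK and PI3K-AKT pathways are switched on. Signaling is ended in part by endocytosis: the ubiquitin ligase CBL marks the activated receptor, and CIN85, an adaptor with several SH3 domains encoded by SH3KBP1, links CBL to endophilins at the forming vesicle. EGFR and MET are the receptors for which this route is best known. In osteosarcoma, IGF1R, PDGFRA, PDGFRB, MET and AXL have long been studied as drug targets. The counts used here measure mRNA near the 3′ end of transcripts and do not measure receptor protein, its location or its phosphorylation.

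Library size, the target of the perturbation and cell type markers were examined first. Vector libraries held from 5334731 to 6049458 counts in all, siRNA libraries from 3540641 to 4174860, and the 10 receptors together took from 0.0901% to 0.117% of all counts. SH3KBP1 was at 85.5, 87.2 and 82.6 CPM (counts scaled to library size with TMM factors) in siNeg and at 3.88, 8.96 and 9.77 in siCIN85, a log2FC of -3.51 (SE 0.21, adjusted P = 5.09e-08). In Mock it was at 76.6, 82.8 and 73 CPM and in the libraries labelled upCIN85 at 71, 90 and 82.8, so these groups overlapped (log2FC 0.07, SE 0.16, adjusted P = 0.887). A plasmid transcript would be read by the 3′ end kit under SH3KBP1 only if it carried an end of that gene, and its end is not given in the sources used here, so this gene does not check the overexpression label. For its transfected pools the study reports western blots of CIN85 protein, with the full-length form quantified, and these were not analysed here. Throughout the text upCIN85 is the name on the label. Mesenchymal markers were abundant, with SPARC at 354 to 779, COL1A1 at 337 to 1240 and VIM at 434 to 642 CPM, while the osteoblast enzyme ALPL had 0 to 23 counts. SP7 and BGLAP had no row in the counts table under their GENCODE names. The 6 osteoblast and mesenchymal markers with a row summed to 1780 to 2250 CPM in Mock, 1900 to 2570 in upCIN85, 1720 to 2090 in siNeg and 1190 to 1600 in siCIN85. Of 6 epithelial markers 4 had a row, and their sum was 52.1 to 56.8 CPM in Mock, 71.9 to 84.8 in upCIN85, 50.8 to 61.5 in siNeg and 46.8 to 56.2 in siCIN85. Of the epithelial markers, EPCAM was at 24.6 to 61.2 and CDH1 at 12.8 to 34.2 CPM. CLDN4 had only 1 to 4 counts (0.244 to 0.868 CPM) and ESRP1 only 1 to 10 (0.175 to 2.02 CPM), so the sum is mostly EPCAM and CDH1. The blood marker PTPRC had 0 or 1 counts, and the 3 blood markers with a row summed to 0.68 to 2.31 CPM over all libraries. The 3 neural markers summed to 0.701 to 0.941 CPM in Mock, 2.45 to 2.97 in upCIN85, 0.25 to 1.3 in siNeg and 1.21 to 1.85 in siCIN85. The mesenchymal sum was thus lower in siCIN85 and the epithelial and neural sums higher in upCIN85, without overlap with the respective control. Of single genes tested, 20.2% did not overlap in siCIN85 versus siNeg and 20.7% in upCIN85 versus Mock. The neural sum rests on few reads, with RBFOX3 at 1 to 8, SNAP25 at 0 to 11 and GFAP at 0 to 2 counts a library. The part of these sums in the results below was not tested.

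Levels of different genes were set side by side per kilobase of exons. AXL, the receptor for the vitamin K-dependent ligand GAS6, was the highest of the 10 at 77.2 CPM per kb, the mean of 12 libraries. EPHA2 followed at 17.4, MET at 17.3 and FGFR1 at 12.1 CPM per kb. A lower set was formed by IGF1R at 6.64, PDGFRB at 6.47 and EGFR at 6.13 CPM per kb, and then came ERBB2 at 1.97, INSR at 0.874 and PDGFRA at 0.341. AXL was above EPHA2, MET above FGFR1, FGFR1 above IGF1R, EGFR above ERBB2 and ERBB2 above INSR in each of the 12 libraries, and INSR was above PDGFRA in 11. EPHA2 lay above MET, IGF1R above PDGFRB and PDGFRB above EGFR in 7 of 12 libraries each, and here the order differed between groups. EPHA2 was above MET in 3 of 3 Mock, 0 of 3 upCIN85, 2 of 3 siNeg and 2 of 3 siCIN85 libraries. IGF1R was above PDGFRB in 0 of 3 Mock and 1 of 3 upCIN85 libraries but in 3 of 3 of each siRNA group. PDGFRB was above EGFR in 3 of 3 Mock, 2 of 3 upCIN85, 2 of 3 siNeg and 0 of 3 siCIN85 libraries. The kit reads transcript ends, so that a count need not grow with length, and on the undivided CPM scale the order was AXL (398), FGFR1 (168), MET (122), IGF1R (92.6), EGFR (76.7), EPHA2 (72.4), PDGFRB (46.2), ERBB2 (20.4), INSR (9.12) and PDGFRA (3.32). AXL, MET, ERBB2, INSR and PDGFRA kept their rank on both scales.

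**Figure D1:**
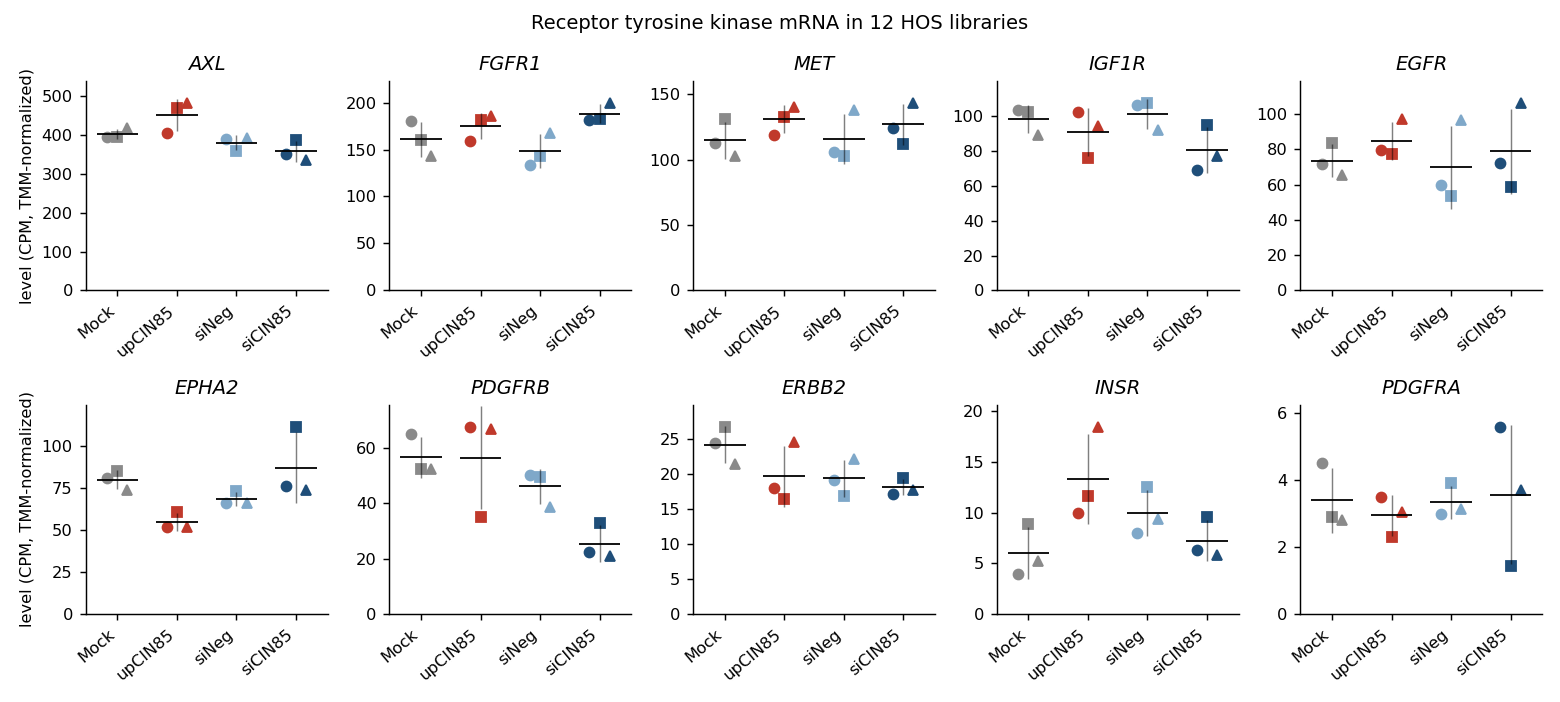
TMM-normalized CPM of the 10 receptors in each library, 1 panel a gene with its own linear axis from 0, for Mock, upCIN85, siNeg and siCIN85; circles, squares and triangles are replicates 1, 2 and 3, the horizontal bar is the mean and the vertical line the SD (n = 3). EPHA2 in upCIN85 lies below all Mock libraries, INSR in upCIN85 above all Mock libraries, and PDGFRB in siCIN85 below all siNeg libraries.

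Before the results, 3 promoter windows are shown, those of the receptors whose means differed most between groups. They come from RefSeq on GRCh38.p14, run 5′ to 3′ on the gene's strand from 250 bases before the annotated start to 50 after it, and capitals mark matches to the GC box letters GGGCGG on either strand. EPHA2 lies at chr1:16156020-16156319 on the minus strand, INSR at chr19:7294365-7294664 on the minus strand and PDGFRB at chr5:150155796-150156095 on the minus strand.
EPHA2: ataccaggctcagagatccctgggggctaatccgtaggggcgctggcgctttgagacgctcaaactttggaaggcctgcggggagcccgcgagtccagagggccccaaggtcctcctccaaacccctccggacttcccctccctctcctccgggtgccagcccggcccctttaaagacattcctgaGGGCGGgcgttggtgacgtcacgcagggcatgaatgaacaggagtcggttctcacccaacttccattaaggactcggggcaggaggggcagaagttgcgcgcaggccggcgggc
INSR: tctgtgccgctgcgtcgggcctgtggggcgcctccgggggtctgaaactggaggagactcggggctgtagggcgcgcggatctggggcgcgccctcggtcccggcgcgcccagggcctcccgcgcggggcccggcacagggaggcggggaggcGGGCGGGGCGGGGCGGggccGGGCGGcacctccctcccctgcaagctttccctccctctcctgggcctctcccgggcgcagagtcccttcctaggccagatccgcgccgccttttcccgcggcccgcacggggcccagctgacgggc
PDGFRB: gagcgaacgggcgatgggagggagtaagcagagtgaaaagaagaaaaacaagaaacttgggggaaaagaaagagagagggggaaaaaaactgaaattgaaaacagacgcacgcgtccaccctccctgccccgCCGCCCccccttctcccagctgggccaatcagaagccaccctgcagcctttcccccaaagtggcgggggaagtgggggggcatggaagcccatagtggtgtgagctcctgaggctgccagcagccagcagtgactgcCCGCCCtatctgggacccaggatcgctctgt
The GC box letters matched 1 time in EPHA2, 4 times in INSR, where neighbouring matches share a base, and 2 times in PDGFRB. Of 35116 RefSeq promoter windows of this length, 45.0% held them. None of the 3 windows held the AP-1 letters TGANTCA, found in 7.71% of all windows, the ETS letters CCGGAAG, found in 10.3%, the FOXO letters TGTTTAC, found in 3.42%, or TATAAA, found in 11.5%. A match is only a match of letters, and the counts do not bear on binding.

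The study also designed a qPCR assay for EPHA2, shown because it reads another end of the transcript than the counts do.
EPHA2 forward primer: attaaggactcggggcaggag
EPHA2 reverse primer: tgcatcaggtcccacccttt
The forward primer lies at chr1:16156049-16156069 in exon 1, inside the window printed above, and the reverse primer spans the junction of exons 2 and 3. Together they bound 304 bp of the transcript ENST00000358432.7, and this amplicon ends 3642 bases before the 3′ end of its 3964 bases. The 3′ counts and this assay therefore sample different parts of EPHA2 mRNA, and the assay's values were not analysed here. The study's text reports qPCR changes in both HOS and SAOS-2 for ADAM19, DLX2, ARHGDIB and HCLS1. For its other genes, which that sentence does not name, it reports significance in 1 line at most.

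The comparison of upCIN85 with Mock asked which receptors differed between the pool transfected with the CIN85 plasmid and the empty-vector pool, whose SH3KBP1 levels overlapped. With edgeR's quasi-likelihood test, 0 of the 10 receptors had an adjusted P-value below 0.05, and 2 of 10 had an unadjusted one below 0.05. Among all 12542 genes tested 1.23% passed the adjusted and 14.5% the unadjusted threshold. INSR and EPHA2 were closest to it, and they were also the 2 receptors whose libraries did not overlap, as was seen for 20.7% of all genes tested. Their calls depended on the test: with the replicate number as a block, or with DESeq2, both passed, 2 of 10 receptors against 8.25% of all genes with the block, 2.5% with DESeq2 on 12 libraries and 2.89% with DESeq2 on the 6 libraries compared. The median log2FC of the 10 was 0.06, against 0.007 over all genes tested.

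INSR (ENSG00000171105, chr19:7112255-7294034 in GRCh38, minus strand) encodes the insulin receptor, which signals through IRS proteins to PI3K and AKT. It had 21, 52 and 30 counts in Mock and 57, 71 and 108 in upCIN85, which is 3.95, 8.83 and 5.26 CPM against 9.97, 11.6 and 18.4. Every upCIN85 library was above every Mock library, though the highest Mock and the lowest upCIN85 library were close. The log2FC was 1.13 (SE 0.30, 95% confidence interval from 0.51 to 1.76), a 2.19-fold higher mean, with an adjusted P of 0.0679. With the block the adjusted P was 0.00313, with DESeq2 it was 0.0356 on 12 and 0.0313 on 6 libraries, and over all 20 alternatives it ranged from 0.000432 to 0.337. Within same-numbered libraries the log2 ratios were 1.34, 0.39 and 1.80, higher in 3 of 3 pairs. MET and AXL were higher in 3 of 3 pairs too, and the share over all genes was not computed.

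EPHA2 (ENSG00000142627, chr1:16124337-16156087, minus strand) encodes an ephrin-A receptor that is frequent on tumor cells and acts in cell contact and migration. It was at 81.1, 85.1 and 73.5 CPM in Mock and at 51.6, 60.6 and 51.8 in upCIN85. All 3 upCIN85 libraries were below all 3 Mock libraries, and the gap between the groups was wider than the spread within either. The log2FC was -0.55 (SE 0.14, 95% confidence interval from -0.85 to -0.24), a 1.46-fold lower mean, with an adjusted P of 0.0697. With the block the adjusted P was 0.00251, with DESeq2 it was 0.0269 on 12 and 0.00831 on 6 libraries, in the edgeR fit of only these 6 libraries 0.0349, and without siCIN85 replicate 2 0.0279. Its range over all 20 alternatives was 0.00251 to 0.255, and the log2FC kept between -0.63 and -0.50. The pair log2 ratios of -0.65, -0.49 and -0.50 lay close together, lower in 3 of 3 pairs. An exact permutation test of 3 libraries against 3 gave P = 0.1 for INSR and for EPHA2, the smallest it can give.

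The other 8 receptors overlapped between upCIN85 and Mock. AXL, the most abundant, was at 395, 396 and 418 CPM in Mock and 404, 469 and 481 in upCIN85 (log2FC 0.16, SE 0.094, adjusted P = 0.456). Its lowest upCIN85 library lay within the Mock range. EGFR, which binds EGF and HBEGF, was at 71.5, 83.7 and 65.6 against 79.4, 77.6 and 97.2 CPM, a log2FC of 0.20 with a 95% confidence interval from -0.24 to 0.64. MET, the receptor of hepatocyte growth factor, was at 113, 131 and 103 against 119, 133 and 140 CPM, a log2FC of 0.18 with an interval from -0.10 to 0.45. In both of these CIN85 cargo receptors upCIN85 replicate 3 was the highest of the 6 libraries and the others were mixed. ERBB2, which has no ligand of its own and pairs with the other ERBB receptors, was at 24.5, 26.7 and 21.4 against 18, 16.5 and 24.6 CPM. Its log2FC of -0.29 (interval from -0.65 to 0.06) came from upCIN85 replicates 1 and 2, while replicate 3 lay inside the Mock range.

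FGFR1, a receptor for fibroblast growth factors, was at 180, 160 and 143 CPM in Mock and 159, 181 and 186 in upCIN85 (log2FC 0.12, SE 0.11). IGF1R, the receptor of the insulin-like growth factors, was at 103, 102 and 88.7 against 102, 75.8 and 94.2 CPM (log2FC -0.11, SE 0.13). Neither group stood apart from its control in these 2 genes. PDGFRB, a receptor for platelet-derived growth factors typical of mesenchymal cells, was at 65.1, 52.3 and 52.4 CPM in Mock and 67.5, 35 and 66.8 in upCIN85, a log2FC of -0.01 (interval from -0.45 to 0.44). Here upCIN85 replicate 2 stood below the other 5 libraries, and without it the log2FC was 0.25. The related PDGFRA had only 16 to 24 counts a library in Mock and 14 to 20 in upCIN85, and its interval from -0.98 to 0.58 allowed for a wide range of changes.

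**Figure D2:**
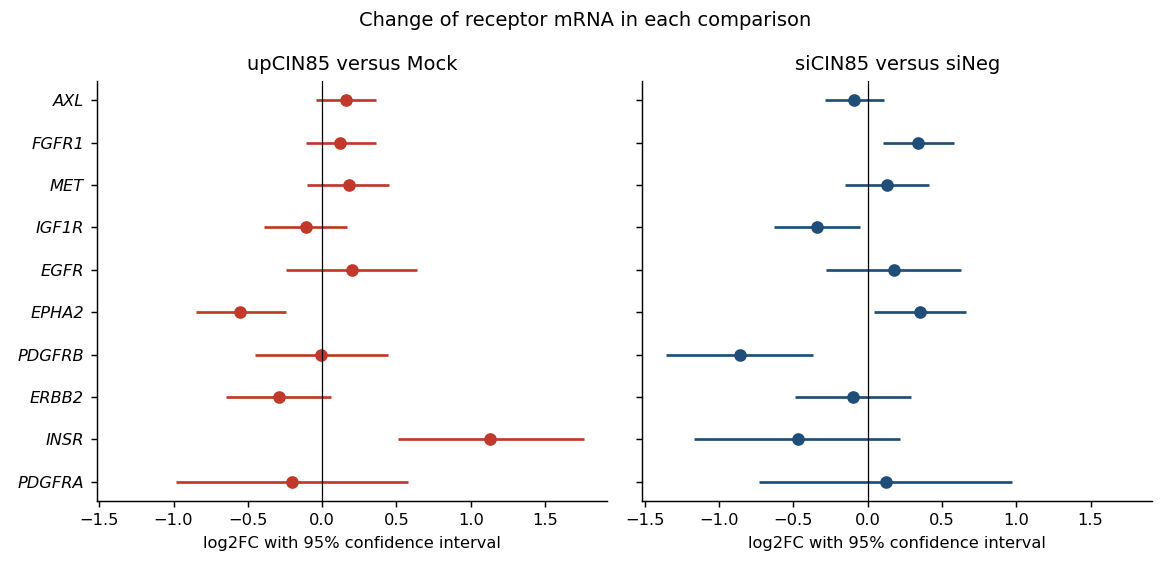
The log2FC of each receptor (points) with its 95% confidence interval (lines) from edgeR's fit of all 12 libraries, for upCIN85 versus Mock on the left and siCIN85 versus siNeg on the right, ordered by mean level. INSR at 1.13 and EPHA2 at -0.55 lie farthest from 0 on the left and PDGFRB at -0.86 on the right, and the widest intervals belong to PDGFRA and INSR, the receptors with the lowest counts.

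The comparison of siCIN85 with siNeg asked which receptors changed when CIN85 was silenced. In edgeR's quasi-likelihood test 0 of 10 receptors passed the adjusted threshold, as 1.04% of all genes did, and 4 of 10 had an unadjusted P below 0.05, against 15.7% of all genes. These 4 were PDGFRB, FGFR1, EPHA2 and IGF1R. PDGFRB, FGFR1 and EPHA2 were also the 3 of 10 receptors without overlap between the groups, as 20.2% of all genes were. With the replicate block 2 of 10 receptors passed, PDGFRB and FGFR1, against 7.72% of all genes. With DESeq2 only PDGFRB passed, against 2.71% of all genes on 12 and 2.58% on 6 libraries. The median log2FC of the 10 was 0.02, against -0.005 over all genes.

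PDGFRB (ENSG00000113721, chr5:150113837-150155872, minus strand) had the largest difference of the 10 in the knockdown. It was at 50.2, 49.4 and 38.8 CPM in siNeg and at 22.3, 33 and 21.1 in siCIN85, from 80 to 202 counts a library. All siCIN85 libraries were below all siNeg libraries, with siCIN85 replicate 2 closest to the controls. The log2FC was -0.86 (SE 0.23, 95% confidence interval from -1.36 to -0.37), a 1.82-fold lower mean, with an adjusted P of 0.0833. With the block the adjusted P was 0.0026, with DESeq2 0.0176 on 12 and 0.0079 on 6 libraries, and over all 20 alternatives it ranged from 3.9e-05 to 0.312. Leaving out upCIN85 replicate 2 gave 0.0192, and leaving out siCIN85 replicate 2 gave 0.03 with a log2FC of -1.10. The pair ratios were -1.17, -0.58 and -0.88 on the log2 scale, lower in 3 of 3 pairs, as were those of IGF1R and INSR. The summed mesenchymal markers were lower in siCIN85 too, at 1190 to 1600 against 1720 to 2090 CPM in siNeg, and their part in the PDGFRB result was not tested.

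FGFR1 (ENSG00000077782, chr8:38400215-38468834, minus strand) was at 133, 143 and 168 CPM in siNeg and at 181, 182 and 199 in siCIN85. All siCIN85 libraries were above all siNeg libraries, and they varied less among themselves than the controls did. The log2FC was 0.34 (SE 0.11, interval from 0.10 to 0.58), with an adjusted P of 0.157, which became 0.0423 with the block and ranged from 0.0423 to 0.408 over 20 alternatives. EPHA2 was at 65.7, 73.1 and 65.9 against 76, 111 and 73.7 CPM, a log2FC of 0.35 (SE 0.15, adjusted P = 0.261). The groups did not overlap, but the gap between siNeg replicate 2 and siCIN85 replicate 3 was under 1 CPM, and siCIN85 replicate 2 stood far above the other libraries. Without that library the log2FC was 0.12.

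IGF1R (ENSG00000140443, chr15:98648539-98964530, plus strand) was at 106, 107 and 91.7 CPM in siNeg and at 69.2, 94.9 and 76.8 in siCIN85. Here siCIN85 replicate 2 lay above the lowest control, so the groups overlapped (log2FC -0.34, SE 0.14, adjusted P = 0.244). INSR, its closest relative, was at 8, 12.5 and 9.38 against 6.31, 9.54 and 5.81 CPM, a log2FC of -0.47 (SE 0.33, adjusted P = 0.508). Both receptors of the insulin family had lower means in siCIN85, and neither passed the test, with or without the block.

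Values of the remaining 5 receptors overlapped between siCIN85 and siNeg. AXL was at 389, 358 and 393 CPM in siNeg and at 351, 388 and 335 in siCIN85 (log2FC -0.09, SE 0.095), and with counts of 1270 to 1557 a library its interval from -0.29 to 0.11 was the narrowest of the 10. MET was at 106, 103 and 138 against 124, 112 and 143 CPM (log2FC 0.13, interval from -0.15 to 0.41), and EGFR at 59.5, 53.3 and 96.9 against 72.3, 58.4 and 106 CPM (log2FC 0.18, interval from -0.28 to 0.63). In both genes replicate 3 was the highest library of each group. ERBB2 was at 19.2, 16.9 and 22.1 against 17.2, 19.4 and 17.7 CPM (log2FC -0.10, interval from -0.49 to 0.29). PDGFRA had 12 to 16 counts in siNeg but 5, 14 and 23 in siCIN85, the widest spread of any receptor, and its interval ran from -0.73 to 0.97.

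**Figure D3:**
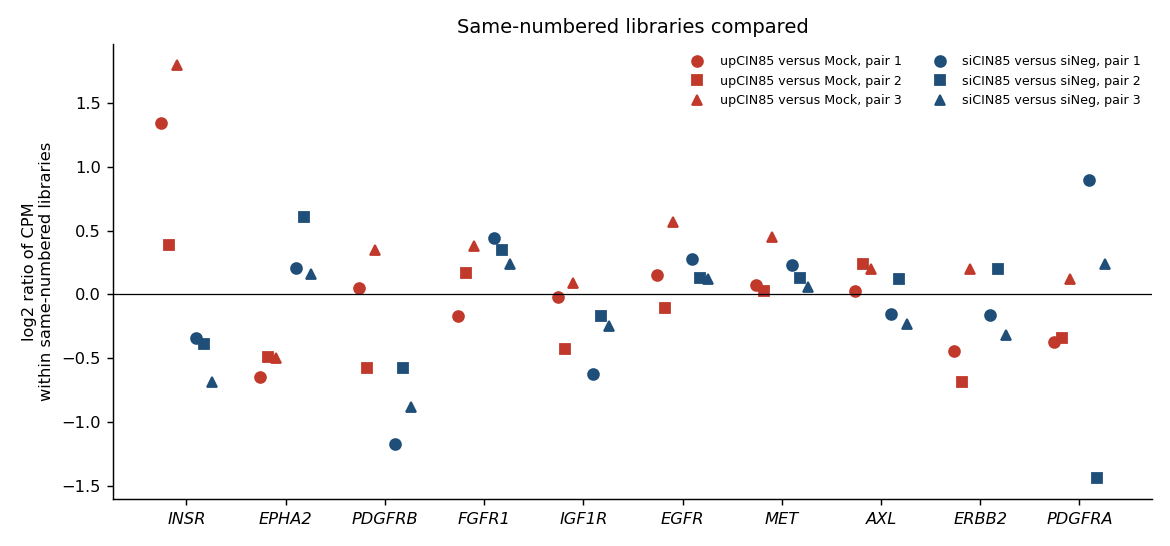
Log2 ratio of CPM in the perturbed library to the control library with the same replicate number, for each receptor; red marks are upCIN85 over Mock, blue marks siCIN85 over siNeg, and circles, squares and triangles are pairs 1, 2 and 3. EPHA2 is below 0 in 3 of 3 upCIN85 pairs and above 0 in 3 of 3 knockdown pairs. INSR shows the opposite in both, though its siCIN85 and siNeg libraries overlap. MET and AXL are also above 0 in 3 of 3 upCIN85 pairs. In the knockdown EGFR, MET and FGFR1 are above 0 in 3 of 3 pairs, and PDGFRB and IGF1R below. The share of all genes with 3 of 3 pairs on 1 side was not computed.

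The replicate numbers of the labels mattered for these calls. Across genes, the deviations from the group mean correlated between same-numbered libraries, with r of 0.329, 0.231 and 0.101 for the Mock and upCIN85 pairs and of 0.356, 0.271 and 0.449 for the siNeg and siCIN85 pairs. Differently numbered libraries of these comparisons had r from -0.303 to 0.0304. Deviations cancel within a group, so positive values for same-numbered libraries pull the other values down by construction. Same-numbered Mock and siNeg libraries, of different experiments, had 0.0768, 0.183 and -0.0599. The labels do not state that the numbers pair the libraries. A block on the number in the knockdown only left the vector libraries unblocked. It gave adjusted P-values of 0.0235 for INSR and 0.0148 for EPHA2 in upCIN85 versus Mock, where 4.35% of all genes passed. It gave 0.0342 for PDGFRB in siCIN85 versus siNeg, where 3.42% passed, and FGFR1 did not pass.

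Whether the plasmid pool and the knockdown differed in their effect on a receptor was tested as the difference of both log2FC values. EPHA2 was the only receptor of 10 that passed, against 0.973% of all genes: the difference was -0.89 (SE 0.21, 95% confidence interval from -1.33 to -0.46, adjusted P = 0.048). It was lower in 3 of 3 upCIN85 libraries and higher in 3 of 3 siCIN85 libraries than in all respective controls. This call was at the edge of the threshold. It was lost when any 1 library was left out except upCIN85 replicate 2 or siCIN85 replicate 3, with adjusted P-values up to 0.13 (without upCIN85 replicate 3). Over all 12 fits with 1 library left out the EPHA2 difference was between -0.98 and -0.66, the latter without siCIN85 replicate 2. INSR gave a difference of 1.61 (SE 0.44, adjusted P = 0.0855) and PDGFRB of 0.86 (SE 0.31, adjusted P = 0.209). With the block in the knockdown only EPHA2 and INSR passed, the latter with 0.0455, against 2.93% of all genes. With the block on both experiments all 3 passed, with 0.0078 for INSR and 0.0236 for PDGFRB, against 7.32% of all genes. DESeq2 on 12 libraries called EPHA2 alone, against 2% of all genes. Without upCIN85 replicate 2 the PDGFRB difference was 1.11 with an adjusted P of 0.0209. For EGFR and MET the differences were 0.03 (SE 0.30) and 0.05 (SE 0.19).

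The control groups were compared with each other, since siNeg and Mock cells differ in how they were treated but not in CIN85 targeting. In edgeR's test 0 of 10 receptors passed, against 0.526% of all genes, and INSR was the 1 receptor with an unadjusted P below 0.05, against 12.4% of all genes. DESeq2 called 0 of 10 as well, against 1.66% of all genes on 12 libraries and 1.68% on 6. INSR was at 8, 12.5 and 9.38 CPM in siNeg and at 3.95, 8.83 and 5.26 in Mock, with log2FC 0.72, SE 0.32 and an adjusted P of 0.367. AXL, PDGFRB and EPHA2 were lower in every siNeg than in every Mock library, 3 of 10 receptors where 19.4% of all genes did not overlap, with log2FC values of -0.08, -0.29 and -0.23. The INSR log2FC between controls was 0.72 where that between upCIN85 and Mock was 1.13, and both share the 3 Mock libraries, of which replicate 1 had the lowest count, 21. Experiment and treatment cannot be told apart in this comparison.

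Receptors outside the 10 were taken from a list of the other 48 human receptor tyrosine kinases, of which 41 had a row and 23 were tested. In upCIN85 versus Mock 2 of 23 passed in edgeR's test, 1 higher and 1 lower, against 1.23% of all genes tested. FLT1, a receptor of vascular endothelial growth factors, fell from 55.9, 84.5 and 55.4 CPM in Mock to 21.2, 32.4 and 18.7 in upCIN85, a log2FC of -1.44 (SE 0.20, adjusted P = 0.00174), and stayed called under each of 20 alternatives. Its libraries did not overlap, and its change was larger than that of any of the 10 receptors. EPHB3, a receptor for B-type ephrins, rose from 9.03, 5.60 and 5.61 to 15.7, 12.9 and 20.1 CPM (log2FC 1.27, SE 0.26, adjusted P = 0.0254). Its call was lost without Mock replicate 2 or 3 or without upCIN85 replicate 1 or 3, with adjusted P-values up to 0.16. In siCIN85 versus siNeg 1 of 23 passed in edgeR's test, against 1.04% of all genes. This was TIE1, an endothelial receptor, which had 4, 5 and 13 counts in siNeg and 28, 28 and 49 in siCIN85 (log2FC 2.31, SE 0.49, adjusted P = 0.0317). Of the endothelial markers PECAM1 had 0 to 6, VWF 0 or 1 and CDH5 2 to 36 counts a library, and the sum of the 3 was 1.25 to 4.95 CPM in siNeg and 0.578 to 5.55 in siCIN85. The TIE1 call was lost without Mock replicate 3, siNeg replicate 1 or 2, or siCIN85 replicate 1 or 3, with adjusted P-values up to 0.171, and in both fits of only 6 libraries. With the replicate block 3 of 23 passed in upCIN85 versus Mock, where FGFR3 was added, against 8.25% of all genes. In the knockdown 4 of 23 passed with the block, TIE1, DDR1, DDR2 and LMTK2, against 7.72%. DESeq2 on 12 libraries called TIE1 and DDR2 there, against 2.71% of all genes. Between siNeg and Mock 1 of 23 passed in edgeR's test, against 0.526% of all genes. This was the collagen receptor DDR1, higher in siNeg (log2FC 0.74, SE 0.15, adjusted P = 0.0341), a call lost without any 1 Mock library or without siNeg replicate 1 or 2. The median log2FC of the 23 was -0.03 in upCIN85 versus Mock and 0.03 in siCIN85 versus siNeg.

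**Figure D4:**
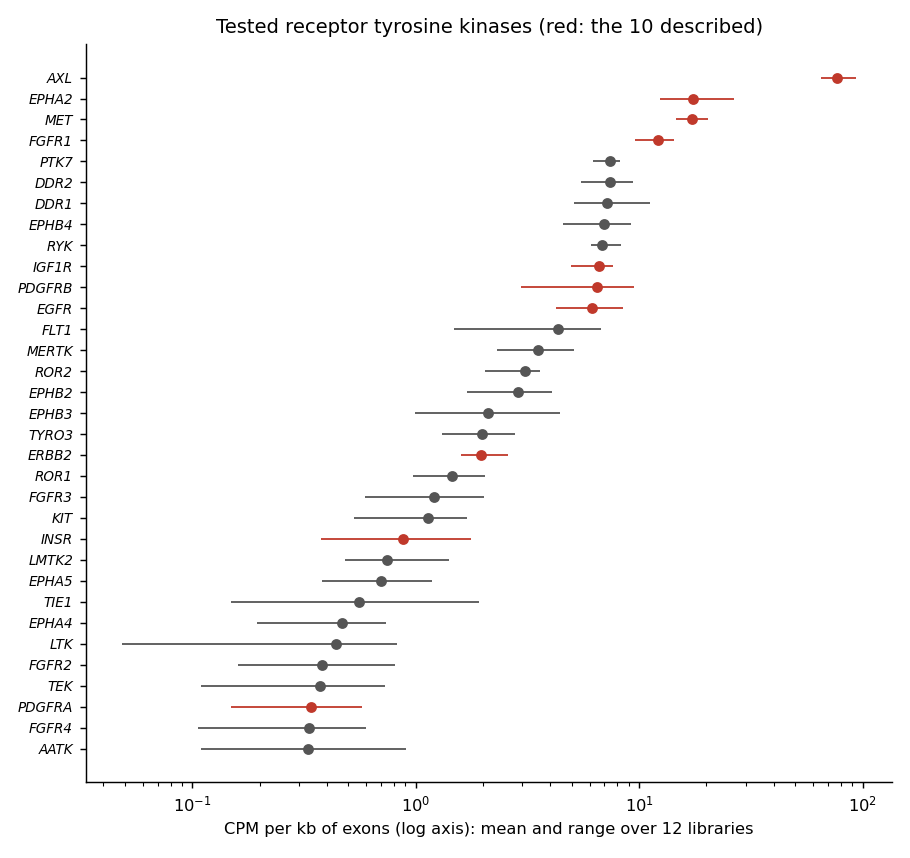
Mean CPM per kb of exons (points) and range over the 12 libraries (lines) of the 33 receptor tyrosine kinases tested, on a logarithmic axis; the 10 receptors described are red and the other 23 grey. The 4 highest levels on this scale, from AXL at 77.2 to FGFR1 at 12.1 CPM per kb, belong to the 10, while PDGFRA at 0.341 ranks 31 of 33. The kit reads transcript ends, so a count need not grow with length and the order depends on the division. In undivided CPM, EPHA2 at 72.4 lies below IGF1R at 92.6 and EGFR at 76.7.

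Of 29 listed ligands of the receptors, 24 had a row and 15 were tested, and 0 passed the adjusted threshold of edgeR's test in either CIN85 comparison, with 5 in upCIN85 versus Mock and 6 in siCIN85 versus siNeg at an unadjusted P below 0.05, against 14.5% and 15.7% of all genes. With the replicate block 5 of 15 passed in each, against 8.25% and 7.72% of all genes. With DESeq2 on 12 libraries 1 ligand, EFNA1, passed in upCIN85 versus Mock and 0 in the knockdown, against 2.5% and 2.71%. FGF2, the most abundant ligand of FGFR1, was at 126, 151 and 158 CPM in Mock, 112, 119 and 112 in upCIN85, 165, 150 and 107 in siNeg and 97.8, 115 and 87.1 in siCIN85. Its log2FC was -0.35 (adjusted P = 0.258, and 0.0356 with the block) in upCIN85 versus Mock and -0.50 (adjusted P = 0.107, and 0.00617 with the block) in knockdown. PDGFC, a ligand of PDGFRA, was at 83.2 to 122 CPM over all libraries, with a log2FC of 0.10 in both comparisons. HBEGF, an EGFR ligand, was at 61.9, 94.2 and 71.9 CPM in Mock and 43, 61.9 and 50.3 in upCIN85, a log2FC of -0.55 (adjusted P = 0.184, and 0.0147 with the block). PDGFB, which binds PDGFRB, had a mean of 21.8 ± 4.51 CPM (SD, n = 3) in Mock and 13.2 ± 4.36 in upCIN85 (log2FC -0.73, adjusted P = 0.222, and 0.00868 with the block). GAS6, the AXL ligand, was at 17.3, 18.3 and 20.9 CPM in Mock and 15.2, 13.2 and 16.8 in upCIN85, without overlap (log2FC -0.32, adjusted P = 0.396). IGF2, a ligand of IGF1R and INSR, had 0 or 1 counts a library, and HGF, IGF1 and INS had no row in the counts table under their GENCODE names.

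EFNA1, an ephrin-A ligand of EPHA2, was at 36.5, 29.9 and 37.2 CPM in Mock and at 23.1, 13.9 and 24.6 in upCIN85, without overlap. The log2FC was -0.75 (SE 0.21, adjusted P = 0.0836, and 0.000656 with the block). In siNeg it was at 72, 89.7 and 60.4 and in siCIN85 at 47.1, 59.3 and 38 CPM, a log2FC of -0.62 (SE 0.20, adjusted P = 0.141, and 0.0025 with the block). EFNA1 was therefore lower in both perturbed groups than in their controls, whereas its receptor had a lower mean in upCIN85 and a higher one in siCIN85. Between the controls EFNA1 was higher in siNeg than in Mock (log2FC 1.10, SE 0.20, adjusted P = 0.0195), a call lost without siNeg replicate 2 or any 1 Mock library. AREG, another EGFR ligand, had 4 to 10 counts a library in Mock, upCIN85 and siNeg and 23, 11 and 13 in siCIN85 (log2FC 1.51 in knockdown, adjusted P = 0.0993, and 0.0354 with the block).

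All 27 listed genes of receptor endocytosis that had a row were tested. In edgeR's test 1 of 27 passed in upCIN85 versus Mock, against 1.23% of all genes, and 2 of 27 in the knockdown, against 1.04%. An unadjusted P below 0.05 was seen for 5 and 11 of 27, against 14.5% and 15.7% of all genes. CBL, the ubiquitin ligase that binds CIN85, fell in upCIN85: it was at 148, 175 and 152 CPM in Mock and at 106, 120 and 103 in upCIN85, a log2FC of -0.53 (SE 0.10, adjusted P = 0.0204). This call was lost without Mock replicate 2 or 3 or without upCIN85 replicate 1 or 3, with adjusted P-values up to 0.135. In the knockdown CBL was at 149, 154 and 131 CPM in siNeg and 183, 182 and 170 in siCIN85, without overlap (log2FC 0.30, SE 0.11, adjusted P = 0.171, and 0.0364 with the block). The difference between both effects passed, at -0.83 (SE 0.15, adjusted P = 0.0122), and its adjusted P was 0.0514 without Mock replicate 2. RAB7A, a GTPase of late endosomes, rose in siCIN85, from 299, 305 and 308 to 450, 360 and 422 CPM (log2FC 0.43, SE 0.095, adjusted P = 0.0381). The RAB7A call held in 4 of 12 fits with 1 library left out and was lost without Mock replicate 1 or 2, upCIN85 replicate 1, any 1 siNeg library, or siCIN85 replicate 1 or 3. Besides RAB7A, the knockdown call in this list was SH3KBP1 itself, which the siRNAs target. With the block 8 of 27 passed in the knockdown, against 7.72% of all genes, and 2 of 27 in upCIN85 versus Mock, a share below the 8.25% of all genes. The median log2FC of the 27 was -0.009 in upCIN85 versus Mock and 0.115 in siCIN85 versus siNeg.

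Of 18 negative regulators of receptor signaling tested, 0 passed in edgeR's test, with 5 in upCIN85 versus Mock and 4 in the knockdown at an unadjusted P below 0.05, against 14.5% and 15.7% of all genes. With the block, 3 and 4 of 18 passed, against 8.25% and 7.72% of all genes. With DESeq2 on 12 libraries 0 and 1 passed, the latter SH2B3, against 2.5% and 2.71%. SOCS3, an inhibitor of cytokine and insulin receptor signaling, was at 9.03, 14.6 and 13 CPM in Mock and 7.34, 7.84 and 7.65 in upCIN85 (log2FC -0.68, SE 0.22, adjusted P = 0.139, and 0.0297 with the block). SH2B3, an adaptor that restrains receptor signaling, was at 29.5, 28.1 and 27.1 CPM in siNeg and 50.7, 36.4 and 40.1 in siCIN85 (log2FC 0.59, SE 0.15, adjusted P = 0.0665, and 0.0101 with the block). Its difference between both effects passed, at -0.97 (SE 0.21, adjusted P = 0.0381), but held in only 2 of 12 fits with 1 library left out, those without upCIN85 replicate 2 or siCIN85 replicate 2. Of 35 adaptors and kinases of proximal signaling 0 passed in edgeR's test, with 5 and 4 at an unadjusted P below 0.05, shares no higher than among all genes. With the block 3 and 1 of 35 passed in upCIN85 versus Mock and the knockdown, where 8.25% and 7.72% of all genes did. DESeq2 on 12 libraries called 1 in upCIN85 versus Mock, GAB2, and 0 in the knockdown, against 2.5% and 2.71% of all genes. GAB2, a docking protein for PI3K and SHP2, was at 58.1, 52.3 and 49.8 CPM in Mock and 36.9, 38.6 and 36.7 in upCIN85 (log2FC -0.51, SE 0.13, adjusted P = 0.0555, and 0.00719 with the block). HRAS was at 21, 23 and 24.2 CPM in siNeg and 16, 15.6 and 14.5 in siCIN85 (log2FC -0.56, SE 0.17, adjusted P = 0.12, and 0.0516 with the block).

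Several receptor genes share exons with a neighbour, and the strand setting of the counting is not given in the sources used here. EGFR overlaps EGFR-AS1, ERBB2 overlaps MIEN1 and PGAP3, AXL overlaps AC011510.1, and FGFR1 overlaps LETM2 and AC087623.1, all on the opposite strand, while PDGFRA overlaps AC058822.1 on its own strand. For these 5 genes reads of the neighbour may have been counted or left out. MET, PDGFRB, IGF1R, INSR and EPHA2 have no such overlap in GENCODE 29.

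How the receptors varied together was measured over the 12 libraries as the correlation of log2 CPM for all 45 pairs of receptors, with permutation tests. EGFR and MET were the 1 pair that passed after Benjamini-Hochberg adjustment over the 45: Pearson's r was 0.918 (permutation P = 6e-05, adjusted 0.0027) and Spearman's rho 0.916 (permutation P = 0.00011, adjusted 0.0049). Without the 2 libraries farthest from the EGFR median r was 0.876, and with group means removed it was 0.928. It was 0.902 within the 6 vector libraries and 0.982 within the 6 siRNA libraries. Same-numbered libraries correlated across genes, so the 12 cannot be taken as fully independent. PDGFRB and IGF1R came next, with r of 0.801 (permutation P = 0.0026, adjusted 0.0587) and rho of 0.524 (permutation P = 0.0834, adjusted 0.468), and r was 0.538 without the 2 farthest libraries. With group means removed it was 0.89, within the vector libraries 0.856 and within the siRNA libraries 0.95.

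**Figure D5:**
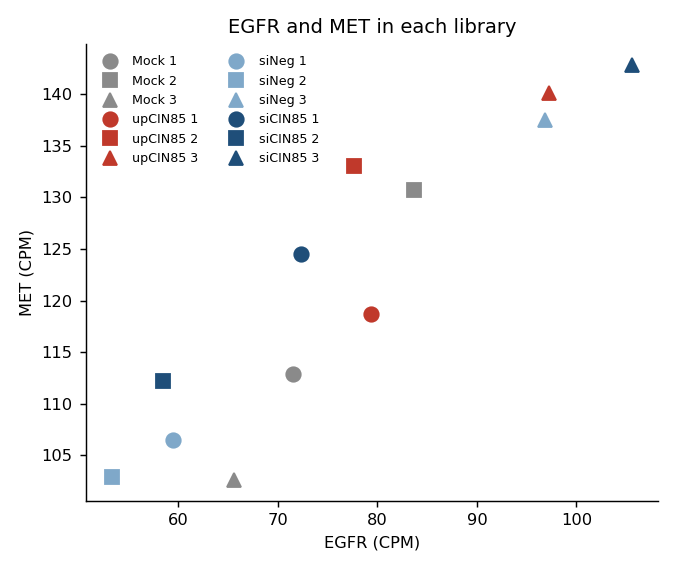
MET against EGFR in each of the 12 libraries, both in CPM; colours are the groups and circles, squares and triangles replicates 1, 2 and 3. The highest EGFR levels, 96.9 to 106 CPM, are replicate 3 of siNeg, upCIN85 and siCIN85, and the same 3 libraries have the highest MET levels, 138 to 143 CPM.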

How the data were processed

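RNA-seq libraries of HOS cells (4 groups of 3) were prepared by the authors with a 3′ end kit with molecular identifiers and counted per gene with featureCounts; the submitters' processing notes name cutadapt 4.3, STAR 2.7.3a, Picard 2.25.6, Subread 2.0 and GRCh38. The deposited values are whole-number counts, not normalized. Strand setting, annotation and collapsing of identifiers are not given in the sources used here; uncollapsed copies would make counts less independent. Groups and replicate numbers follow the labels. Gene names and positions come from GENCODE 29, in which 95 identifiers had no match.

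Counts were analysed in R 4.3.3 with edgeR 4.0.16: filterByExpr (minimum count 10, minimum total 15), TMM factors and a quasi-likelihood fit of all 12 libraries with 8 residual degrees of freedom. P-values were two-sided and adjusted over all genes tested (Benjamini-Hochberg) and called below 0.05. Total counts of 3540641 to 6049458 a library left INSR and PDGFRA with the widest intervals. Alternatives were a fit of 6 libraries, RLE factors, other filters, a replicate block, DESeq2 1.42.0 and leaving out each library. The labels share replicate numbers but do not state a pairing, so the block is given as an alternative. Same-numbered libraries correlated above 0.1 in every pair of upCIN85 with Mock and of siCIN85 with siNeg. Mock and siNeg replicate 2, of different experiments, did so too, at 0.183. The test was checked on simulated counts drawn independently for each library, a check that does not cover correlation between same-numbered libraries. No duplicated library was found.

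The receptors and the 5 lists (other receptor tyrosine kinases, ligands, endocytosis, negative regulators, proximal signaling) were chosen with earlier results of these data known. Named beside the receptors were SH3KBP1, the most abundant listed ligand of each receptor, list genes called in a CIN85 comparison (at most 5 a list) or else the one with the smallest P, and genes most like a receptor called in upCIN85 versus Mock or siCIN85 versus siNeg, of which edgeR's fit of 12 libraries gave none. DDR1, DDR2, FGFR3 and LMTK2 were named after their values were seen.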

Additional observations from a re-analysis of the deposited data

Results flagged for a closer look

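For EPHA2, the log2FC in upCIN85 versus Mock minus that in siCIN85 versus siNeg was -0.89 (95% confidence interval from -1.33 to -0.46, adjusted P = 0.048 in edgeR's quasi-likelihood test). It stands here for this test of the difference itself. In the same fit neither comparison passed alone, while 7 of 20 alternatives called EPHA2 in upCIN85 versus Mock. INSR and PDGFRB had differences that passed with the replicate block (adjusted P = 0.0078 and 0.0236). Over 18 alternatives the adjusted P of the EPHA2 difference ranged from 0.00148 to 0.13, and 8 of them called it.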

How the results depend on the processing

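Directions of the receptor log2FC values were mostly kept over 20 alternatives for each CIN85 comparison and 18 for the other contrasts, while the number of calls moved. Genes called in upCIN85 versus Mock were 154, and 281 in the fit of 6 libraries, 637 without a filter, 1035 with the replicate block in both experiments, 545 with it in the knockdown only, 311 and 369 with DESeq2 on 12 and 6 libraries, and 25 to 260 with 1 library left out, the extremes without upCIN85 replicate 3 and replicate 2. In siCIN85 versus siNeg 131 became 50, 617, 968, 429, 298 and 204 in the same order, and 9 to 362 with 1 library left out, the extremes without siCIN85 replicate 1 and replicate 2. In siNeg versus Mock 66 became 376 without a filter, 183 and 182 with DESeq2 and 7 to 134 with 1 left out, the extremes without Mock replicate 3 and siNeg replicate 3. For the difference of both effects 122 became 554 without a filter, 918 and 368 with the blocks, 269 with DESeq2 and 33 to 341 with 1 left out, the extremes without upCIN85 replicate 3 and replicate 2.

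In upCIN85 versus Mock 0 of 10 receptors were called, against 1.23% of all genes. The number was 1 in the fit of 6 libraries, where 2.28% of all genes passed. It was 2 without a filter (2.53%), with the block in both experiments (8.25%) or the knockdown only (4.35%), and with DESeq2 (2.5% and 2.89%). With 1 library left out it was 0 to 1, against 0.199% to 2.07% of all genes. In siCIN85 versus siNeg 0 of 10, against 1.04% of all genes, became 2 with the block in both experiments (7.72%). The number was 1 without a filter (2.45%), with the knockdown block (3.42%) and with DESeq2 (2.71% and 2.58%). With 1 left out it was 0 to 1, against 0.0691% to 2.76% of all genes. For the difference 1 of 10, against 0.973% of all genes, became 3 without a filter (2.2%) and with the block in both experiments (7.32%). It was 2 with the knockdown block (2.93%), and 0 to 2 with 1 left out (0.263% to 2.71%). The replicate blocks changed the calls of INSR, EPHA2, PDGFRB and FGFR1 given above and no other receptor's. The block was not run for siNeg versus Mock, whose libraries lie in different experiments. PDGFRA could not be tested at 10 counts in every library. The cause of these shifts was not tested, other than that the filters and left-out libraries change the genes or samples in the fit.

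No log2FC whose sign turned was called. PDGFRB in upCIN85 versus Mock was 0.006 at 10 counts in every library, and MET in siNeg versus Mock was -0.028 without a filter and -0.004 with DESeq2 on 12 and on 6 libraries. With 1 library left out, upCIN85 versus Mock ranged from -0.34 to 0.047 for PDGFRA, -0.16 to 0.25 for PDGFRB and -0.21 to 0.002 for IGF1R, siCIN85 versus siNeg from -0.36 to 0.46 for PDGFRA and -0.10 to 0.48 for EGFR, and siNeg versus Mock from -0.14 to 0.10 for MET, -0.14 to 0.23 for PDGFRA, -0.38 to 0.093 for EGFR and -0.018 to 0.12 for IGF1R. The differences ranged from -0.27 to 0.31 for EGFR, -0.082 to 0.16 for MET and -0.66 to 0.16 for PDGFRA. The order of levels kept 10 of 10 ranks with CPM from raw totals and 5 of 10 per kb of exons. Depth limited PDGFRA most, which had 5 to 24 counts a library and the widest confidence interval of the 10 in each contrast.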
